A study of Homo sapiens with 12 samples.

Results

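The genes described here are 4 inhibitors of cyclin-dependent kinases, CDKN1A, CDKN1B, CDKN1C and CDKN2A, and RBL1, a pocket protein of the retinoblastoma family. Every probe set assigned to exactly 1 of these 5 genes was taken, which gave 9 of the 16376 probe sets, and 5 of the 8545 genes, on the arrays. CDKN1A (202284_s_at), CDKN1B (209112_at) and RBL1 (205296_at) had 1 probe set each, while CDKN1C (213348_at, 216894_x_at and 213182_x_at) and CDKN2A (209644_x_at, 207039_at and 211156_at) had 3 each. In the manufacturer's naming, the ending x_at marks a probe set that can also match other sequences, so 2 of the CDKN1C and 1 of the CDKN2A probe sets may pick up other transcripts.

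The study used 2 human cell lines that the labels call glioblastoma lines, SNB19 and SF539, and asked what loss of PARK2, which encodes the E3 ubiquitin ligase Parkin, does to gene expression. In each line, cells transfected with PARK2 siRNA#1 or PARK2 siRNA#2 (called siRNA1 and siRNA2 from here on) were set against cells transfected with scramble siRNA. All 12 arrays therefore came from cells that had been through lipid transfection with an siRNA and were harvested after 48 h, and each of the 6 groups had 2 arrays. PARK2 itself was not analysed here, so the labels were not checked against its level. The labels do not say whether the 2 arrays of a group came from separate cultures, so the p-values measure the spread between these arrays, which may be technical. Each value is a log2 expression level for the whole culture, in which fewer cells of a kind and less RNA per cell cannot be told apart.

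Cyclin-dependent kinases drive the cell cycle, and the products of these genes hold them back. CDKN1A (p21), CDKN1B (p27) and CDKN1C (p57) form the CIP/KIP family, which binds complexes of a cyclin with its kinase. CDKN2A encodes p16, a member of the INK4 family that binds CDK4 and CDK6, and, from another reading frame, ARF, which stabilises p53. RBL1 (p107) is phosphorylated by these kinases and, while unphosphorylated, binds E2F factors and keeps their target genes low. Loss of CDKN2A is among the most common lesions of glioblastoma.

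The starts of 3 of these genes are shown because CDKN1A and RBL1 had the largest called changes in SNB19 and CDKN1B was called in opposite directions in the 2 lines. The sequences are the 250 bases before the gene start from RefSeq (GRCh38.p14), written 5′ to 3′ on the strand of the gene. They lie at chr6:36678464-36678713 on the plus strand for CDKN1A, chr12:12717118-12717367 on the plus strand for CDKN1B and chr20:37095998-37096247 on the minus strand for RBL1. Capitals mark the GC box GGGCGG (which Sp1 can bind), the E2F site TTTCGCGC or TTTGGCGC and the CCAAT box CCAAT, each searched on both strands.
CDKN1A: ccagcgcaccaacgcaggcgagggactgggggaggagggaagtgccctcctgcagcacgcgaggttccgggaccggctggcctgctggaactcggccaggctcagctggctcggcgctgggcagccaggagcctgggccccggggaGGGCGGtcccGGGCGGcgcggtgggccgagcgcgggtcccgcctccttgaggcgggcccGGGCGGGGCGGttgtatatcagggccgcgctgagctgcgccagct
CDKN1B: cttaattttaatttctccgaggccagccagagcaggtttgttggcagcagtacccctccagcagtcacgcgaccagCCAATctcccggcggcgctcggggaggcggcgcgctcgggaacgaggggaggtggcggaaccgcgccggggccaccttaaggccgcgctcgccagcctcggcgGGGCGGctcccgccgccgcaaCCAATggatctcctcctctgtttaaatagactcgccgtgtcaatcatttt
RBL1: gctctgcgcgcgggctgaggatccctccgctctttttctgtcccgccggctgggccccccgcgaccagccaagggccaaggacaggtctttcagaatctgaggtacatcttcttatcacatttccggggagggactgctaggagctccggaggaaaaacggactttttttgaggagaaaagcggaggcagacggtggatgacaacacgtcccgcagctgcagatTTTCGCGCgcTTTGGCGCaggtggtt
The CDKN1A stretch held 4 GC boxes, the nearer 2 of them overlapping, with their first bases 104, 94, 45 and 40 bases before the gene start. The CDKN1B stretch held 1 GC box (71 bases before the start) and 2 CCAAT boxes (174 and 50 bases before). The RBL1 stretch held 2 E2F sites, 26 and 16 bases before the start, and neither of the other 2 motifs. Of 35116 promoters of this length, 42.6% held a GC box, 32% a CCAAT box and 0.968% one of these E2F sites. A match of letters describes the sequence only.

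The arrays were alike in scale, with medians of 5.94 to 6.14 and lower quartiles of 3.93 to 4.02. Replicate arrays correlated at r of 0.991 to 0.998 over the probe sets, as a description only. The 2 SF539 siRNA2 arrays were the least alike: the median SD over probe sets was 0.126 there, against 0.0658 to 0.0914 in the other groups. They also differed in cell cycle genes, with a mean level of 19 G2/M genes of 9.93 in replicate 1 and 9.07 in replicate 2, so results that rest on them are given without each of them where that changes a call. Of the 11 measured glial markers, SNB19 held GFAP (siRNA1 10.50, siRNA2 10.46, scramble 6.90) and SOX2 (9.11, 9.11 and 9.52 in the same groups). SF539 had GFAP of 3.61, 3.95 and 3.93 and SOX2 of 4.81, 4.55 and 4.73 in those groups, so GFAP was at or below the lower quartile and SOX2 less than 1 unit above it there, while VIM and CD44 were above 12 in every group of both lines. The GFAP levels are those of the brighter of its 2 probe sets. With both PARK2 siRNAs that probe set rose by 3.58 in SNB19, against 1.75 averaged over the 2.

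**Figure D1:**
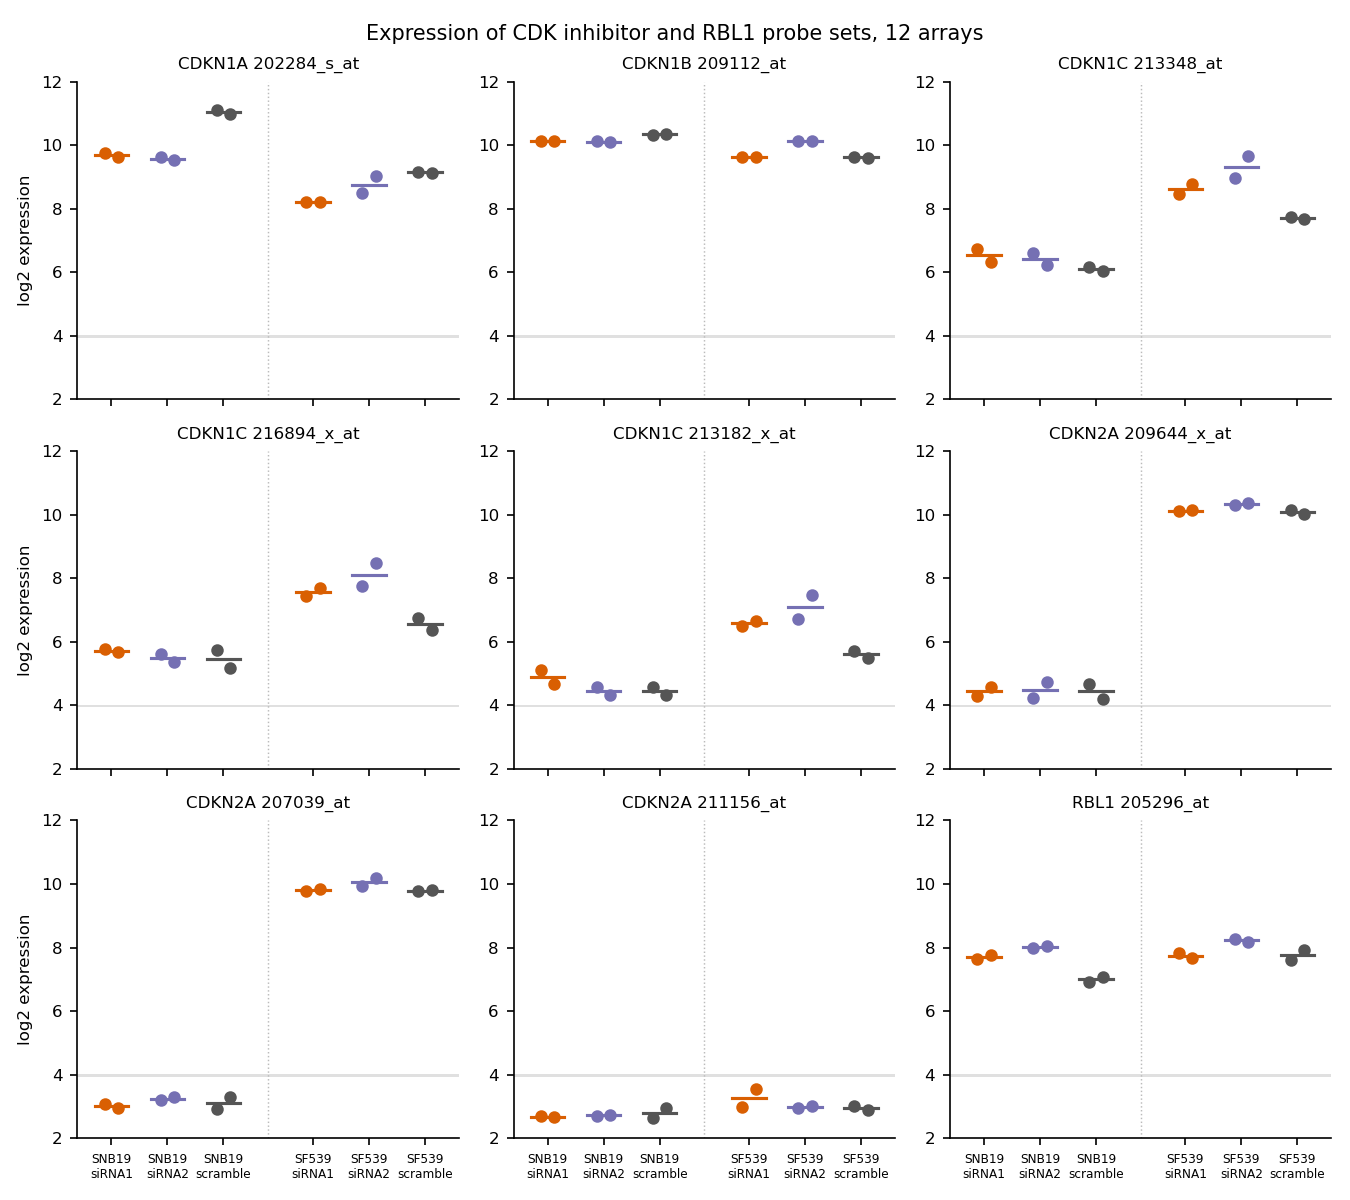
Log2 expression of the 9 probe sets on all 12 arrays, grouped by line and siRNA. Points are single arrays, short bars are group means (n = 2) and the grey band is the range of the arrays' lower quartiles (3.93 to 4.02). CDKN1A was below scramble in both SNB19 siRNA groups, CDKN1C was above scramble in both SF539 siRNA groups, and 2 of 3 CDKN2A probe sets separated the lines.

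CDKN1A, which encodes p21 and is the best known CIP/KIP target of p53, was lower with PARK2 siRNAs in both lines. In SNB19 its level was 9.75 and 9.63 with siRNA1 and 9.62 and 9.52 with siRNA2, against 11.10 and 10.97 with scramble. No array of either siRNA overlapped the scramble arrays, and the siRNAs lay within 0.12 of each other on average. The mean of both siRNAs was lower than scramble by 2.65-fold, a log2 difference of -1.41 ± 0.13 (SE; limma adjusted p = 2.98e-05). In that line 1.59% of all probe sets were lower by as much or more. In SF539 the level was 8.22 and 8.21 with siRNA1 and 8.49 and 9.03 with siRNA2, against 9.15 and 9.13 with scramble. Both siRNAs again lay below scramble on every array, but siRNA2 replicate 2 was close to it. The SF539 difference was -0.65 ± 0.13 (SE; limma adjusted p = 0.0140), or 1.57-fold lower, and 1.17% of probe sets were lower by as much or more. By single siRNA, CDKN1A fell in SF539 with siRNA1 (-0.92, limma adjusted p = 0.0182), and with siRNA2 the difference was -0.38 (limma adjusted p = 0.130). Without siRNA2 replicate 2 the siRNA2 difference was -0.65, and without siRNA2 replicate 1 it was -0.11. Its size thus depended on which siRNA2 array was kept. The SF539 call was lost with SF539 arrays fitted alone (adjusted p = 0.108) and without scramble replicate 1 (-0.64, adjusted p = 0.0838) or replicate 2 (-0.66, adjusted p = 0.0581), and the siRNA1 call without scramble replicate 1 (-0.91, adjusted p = 0.0865) or siRNA1 replicate 1 (-0.93, adjusted p = 0.116) or replicate 2 (-0.92, adjusted p = 0.15).

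Across the 6 groups, CDKN1A ran, low to high, from SF539 siRNA1 (8.21) over SF539 siRNA2 (8.76), SF539 scramble (9.14), SNB19 siRNA2 (9.57) and SNB19 siRNA1 (9.69) to SNB19 scramble (11.03). Neighbours in this order were apart by more than the sum of their SDs, except SF539 siRNA2 and scramble, and the 2 SNB19 siRNA groups. SF539 was thus below SNB19 throughout, by 1.90 on the log2 scale with scramble (limma adjusted p = 3.76e-06) and by 1.14 under the siRNAs (limma adjusted p = 6.84e-06). The change in SF539 was smaller than that in SNB19 by 0.75 ± 0.18 (SE; limma adjusted p = 0.0203 for the difference between lines). This last call was lost without SNB19 scramble replicate 1 (0.69, adjusted p = 0.0931), SF539 scramble replicate 1 (0.76, adjusted p = 0.0546) or SF539 scramble replicate 2 (0.74, adjusted p = 0.0564).

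CDKN1B, which encodes p27 and is controlled largely through the turnover of its protein, changed little in mRNA. In SNB19 it was 10.12 and 10.13 with siRNA1 and 10.13 and 10.08 with siRNA2, against 10.33 and 10.35 with scramble. All 4 siRNA arrays lay below both scramble arrays, and the difference of -0.23 ± 0.07 (SE; limma adjusted p = 0.0292) came to 1.17-fold. In SF539 it was 9.63 and 9.63 with siRNA1 and 10.11 and 10.12 with siRNA2, against 9.64 and 9.60 with scramble. Here siRNA1 could not be separated from scramble (0.01, 95% interval -0.16 to 0.18) and siRNA2 alone was higher (0.50 ± 0.08 SE, or 1.41-fold; limma adjusted p = 0.00311). The mean of both siRNAs in SF539, 0.25 (limma adjusted p = 0.0428), therefore joins a group that did not move and a group that did. CDKN1B was also the 1 probe set of the 9 called between the siRNAs in SF539, at 0.49 for siRNA2 minus siRNA1 (limma adjusted p = 0.0212). That call was lost without siRNA1 replicate 1 (0.49, adjusted p = 0.169) or replicate 2 (0.49, adjusted p = 0.128).

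The opposite directions of CDKN1B in the lines differed by 0.48 ± 0.09 (SE; limma adjusted p = 0.00724), a call that was lost with the arrays centred on their medians (0.31, adjusted p = 0.0548). Neither small mean change was stable: the SNB19 call was lost without each SNB19 array in turn (-0.24 to -0.21, adjusted p = 0.0564 to 0.146) and with the arrays centred on their medians (-0.10, adjusted p = 0.339), and the SF539 call was lost under 16 of the 22 alternatives, among them each SF539 scramble or siRNA1 array left out (0.23 to 0.27, adjusted p = 0.106 to 0.160). The SF539 siRNA2 change kept its call without either siRNA2 array. Levels of CDKN1B spanned less than 1 log2 unit over all groups, from SF539 scramble at 9.62 and SF539 siRNA1 at 9.63 over SNB19 siRNA2 at 10.11, SF539 siRNA2 at 10.12 and SNB19 siRNA1 at 10.12 to SNB19 scramble at 10.34. In that order the first pair, and the next 3 groups, lay within their spread. With scramble, SF539 was below SNB19 by 0.72 on the log2 scale (limma adjusted p = 3.12e-05), and under the siRNAs by 0.24 (limma adjusted p = 0.00380).

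CDKN1C, the imprinted gene for p57, was higher with PARK2 siRNAs in SF539. The brightest probe set, 213348_at, read 8.47 and 8.76 with siRNA1 and 8.97 and 9.67 with siRNA2, against 7.75 and 7.66 with scramble. Every siRNA array was above both scramble arrays, and the 2 siRNA2 arrays were 0.70 apart. The mean difference was 1.26 ± 0.20 (SE; limma adjusted p = 0.00429), a 2.40-fold increase that 0.489% of probe sets matched or exceeded. The other probe sets of CDKN1C gave 1.29 ± 0.21 (216894_x_at; limma adjusted p = 0.00596) and 1.24 ± 0.20 (213182_x_at; limma adjusted p = 0.00506), so all 3 gave the same size of change. By siRNA, 213348_at rose by 1.61 with siRNA2 (limma adjusted p = 0.00206), and with siRNA1 its difference was 0.91 (limma adjusted p = 0.0763). Without either siRNA2 array the siRNA1 difference stayed at 0.91 and its SE fell from 0.23 to 0.17. The siRNA2 arrays enter it only through the shared estimate of the spread, so a call gained that way adds nothing on siRNA1. The SF539 calls of all 3 probe sets held under each of their alternatives.

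In SNB19, CDKN1C 213348_at read 6.74 and 6.33 with siRNA1 and 6.61 and 6.23 with siRNA2, against 6.17 and 6.04 with scramble. All 4 siRNA arrays were above both scramble arrays, but the lowest of them (6.23) and the higher scramble array (6.17) lay closer than the replicates of any SNB19 group. The difference of 0.38 was not called, with a 95% interval of -0.06 to 0.81 (limma adjusted p = 0.196). The other probe sets gave 0.15 (95% interval -0.33 to 0.62) and 0.21 (95% interval -0.24 to 0.65) in SNB19, also not called. The difference between lines in the CDKN1C change was called for 216894_x_at (1.14 ± 0.30 SE, limma adjusted p = 0.0293) and 213182_x_at (1.03 ± 0.28 SE, limma adjusted p = 0.0333), and was 0.89 for 213348_at (limma adjusted p = 0.0568). These calls were not stable. The first was lost without any of 6 single arrays (adjusted p = 0.0515 to 0.140, the highest without SNB19 scramble replicate 1 at 0.87) and the second without any of 8 (adjusted p = 0.0533 to 0.140, the highest again without that array, at 0.90). For 213348_at the difference was 1.06 without SF539 siRNA2 replicate 1 and 0.71 without replicate 2. Its SE fell from 0.28 to 0.22 in both fits, since a group left with 1 array adds nothing to the estimate of the spread. A call gained that way does not add to the evidence for a line difference.

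The 3 CDKN1C probe sets moved together, with r of 0.953 to 0.974 over the 12 arrays after the mean of each line was taken off. Their order of levels was SNB19 below SF539 in every case. For 213348_at the groups ran from SNB19 scramble (6.10), siRNA2 (6.42) and siRNA1 (6.54), which lay within their spread, to SF539 scramble (7.70), siRNA1 (8.62) and siRNA2 (9.32), which were apart by more than the sum of their SDs, siRNA2 from siRNA1 only just. With scramble, 213348_at was higher in SF539 than in SNB19 by 1.60 (limma adjusted p = 0.000225), and under the siRNAs by 2.49 (limma adjusted p = 3.95e-07).

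**Figure D2:**
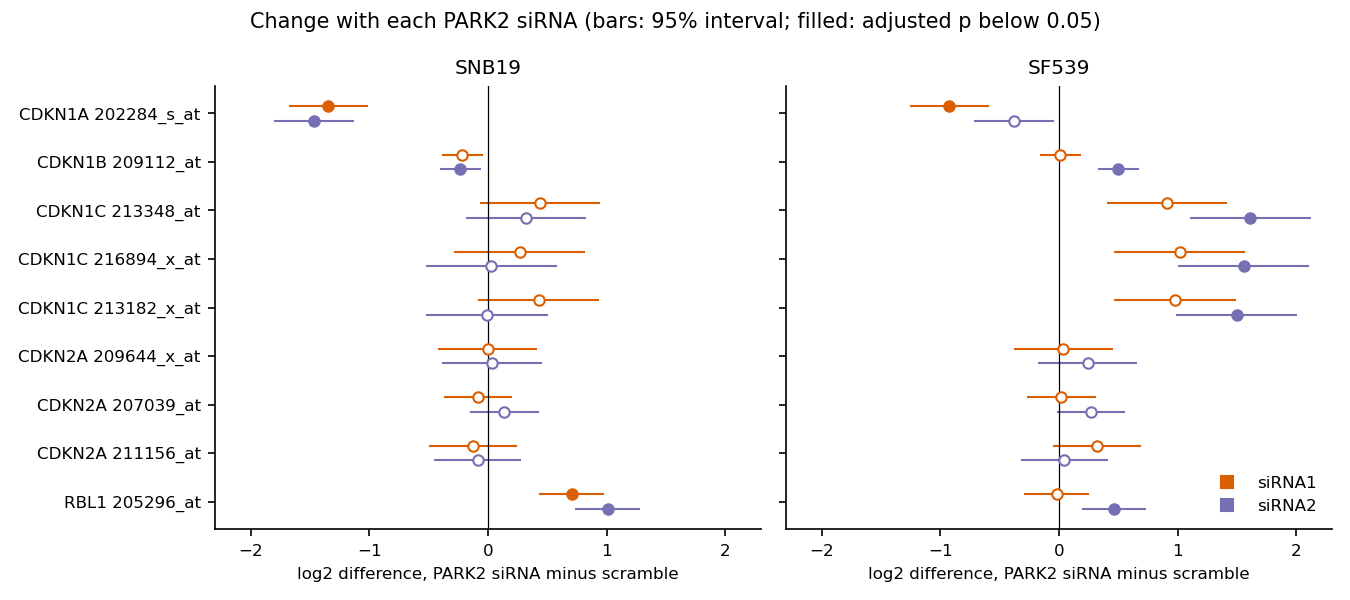
Log2 difference of each siRNA from scramble for the 9 probe sets, in SNB19 (left) and SF539 (right). Points are fitted differences, bars their 95% intervals, and filled points had an adjusted p below 0.05. In SF539 CDKN1A, CDKN1B, CDKN1C and RBL1 lay further right with siRNA2 than with siRNA1, while in SNB19 RBL1 lay further right and CDKN1C 213182_x_at further left with siRNA2; of these gaps only that of CDKN1B in SF539 was called.

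CDKN2A set the 2 lines apart and was not called for any siRNA comparison. Probe set 207039_at read 9.77 and 9.85 with siRNA1, 9.95 and 10.18 with siRNA2 and 9.77 and 9.81 with scramble in SF539. In SNB19 it read 3.08 and 2.96 with siRNA1, 3.20 and 3.29 with siRNA2 and 2.93 and 3.29 with scramble, all below the lower quartile of the arrays. CDKN2A was therefore among the brighter transcripts of SF539 and had no signal clearly above the dim end of the arrays in SNB19. Since SNB19 gives only an upper limit for this probe set, its scramble level was at least 55.5-fold higher in SF539 than in SNB19, with each SNB19 array set at its lower quartile (limma adjusted p = 1.82e-10 for the measured values, 9.79 in SF539 and 3.11 in SNB19). The second probe set, 209644_x_at, read 10.01 to 10.36 over the SF539 arrays and 4.2 to 4.72 over the SNB19 arrays, close above the lower quartile, so its scramble difference, SF539 minus SNB19, of 5.64 is also read as a lower bound (limma adjusted p = 6.34e-09). The third, 211156_at, read 2.89 to 3.54 in SF539 and 2.65 to 2.97 in SNB19, below the lower quartile on all 12 arrays, so it was dim also in the line where the others were bright. It was called between the lines under the siRNAs (limma adjusted p = 0.0107) and not with scramble (limma adjusted p = 0.538), but with both lines at the dim end no size is given.

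For the PARK2 siRNAs, the 3 CDKN2A probe sets gave differences of 0.02, 0.03 and -0.11 in SNB19 and of 0.14, 0.15 and 0.18 in SF539. In SF539 the 95% intervals of the 2 bright probe sets were -0.22 to 0.50 (209644_x_at) and -0.10 to 0.39 (207039_at), and that of the dim one was -0.14 to 0.50 (211156_at). In SNB19, 207039_at and 211156_at were at the dim end on every array, which limits what their differences can show.

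Genes near CDKN2A on the short arm of chromosome 9 did not share a line difference of that size. MTAP, which encodes an enzyme of methionine salvage and adjoins CDKN2A, read 7.55 ± 0.25 in SF539 scramble and 6.99 ± 0.03 in SNB19 scramble (SD, n = 2 each). KLHL9, further along, read 9.65 in SF539 scramble and 10.00 in SNB19 scramble. CDKN2B, the INK4 inhibitor next to CDKN2A, was at the dim end in both lines, with 3.13 in SF539 scramble and 2.95 in SNB19 scramble. Of the 9 measured neighbours, 6 were below the lower quartile on every array, so the list says little beyond MTAP, KLHL9 and IFNB1. With PARK2 siRNAs, MTAP rose by 0.54 in SNB19 (limma adjusted p = 0.0154), but averaged over its 4 probe sets it was at 0.25 and not called (adjusted p = 0.0657), and its difference in SF539 was 0.03 (limma adjusted p = 0.919). IFNB1, the gene of interferon beta, fell in both lines, by 1.39 on the log2 scale in SNB19 (limma adjusted p = 0.00103) and by 1.88 in SF539 (limma adjusted p = 0.00110), with the SNB19 siRNA groups at 3.98 and 3.87, near the lower quartile.

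**Figure D3:**
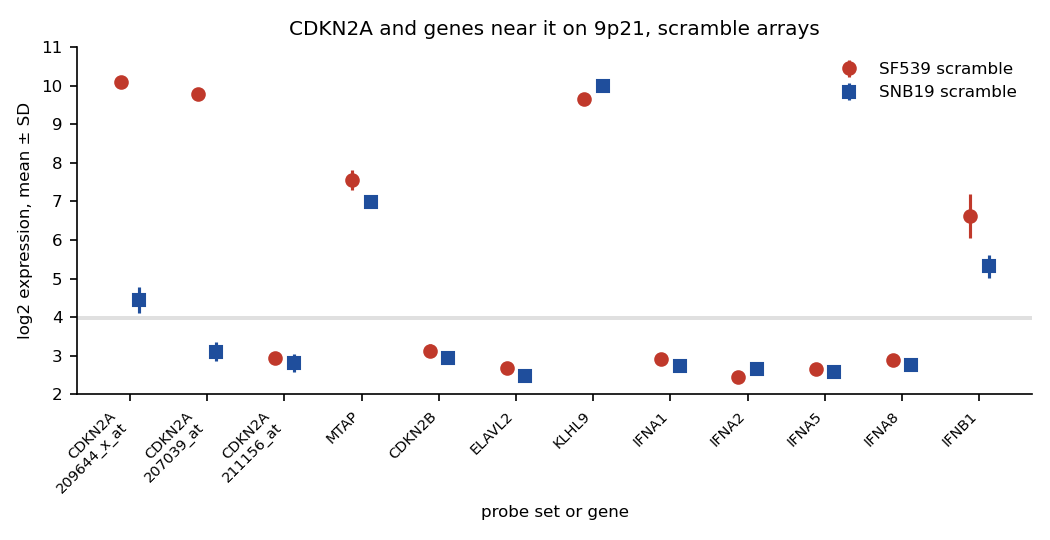
Log2 expression of the CDKN2A probe sets and of its measured neighbours on chromosome 9 in scramble arrays, SF539 (red circles) and SNB19 (blue squares). Points are means and bars SDs (n = 2), and the grey band is the range of the arrays' lower quartiles. CDKN2A 209644_x_at and 207039_at were high in SF539 and low in SNB19, while MTAP and KLHL9 were well above the band in both.

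RBL1, which encodes p107, was higher with both PARK2 siRNAs in SNB19. It read 7.65 and 7.78 with siRNA1 and 7.97 and 8.06 with siRNA2, against 6.93 and 7.09 with scramble. All 4 siRNA arrays were above both scramble arrays. The mean difference was 0.86 ± 0.11 (SE; limma adjusted p = 0.000206), a 1.81-fold increase that 2.76% of probe sets matched or exceeded. By siRNA it rose by 0.71 with siRNA1 (limma adjusted p = 0.00212) and by 1.01 with siRNA2 (limma adjusted p = 0.000216). In SF539 RBL1 read 7.82 and 7.66 with siRNA1 and 8.26 and 8.19 with siRNA2, against 7.60 and 7.92 with scramble. There siRNA1 overlapped scramble and siRNA2 lay above it. The mean difference in SF539 was 0.22, with a 95% interval of -0.01 to 0.46 (limma adjusted p = 0.246). With siRNA1 it was -0.02 (95% interval -0.29 to 0.25), and with siRNA2 RBL1 rose by 0.46 (limma adjusted p = 0.0343). The siRNA2 call was lost under 12 of the 22 alternatives, among them SF539 scramble replicate 1 left out (0.30, adjusted p = 0.192), SF539 siRNA2 replicate 1 left out (0.43, adjusted p = 0.0705) and SF539 siRNA2 replicate 2 left out (0.50, adjusted p = 0.0709).

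The RBL1 change differed between the lines by -0.64 ± 0.15 for SF539 minus SNB19 (SE; limma adjusted p = 0.0169). Without SNB19 scramble replicate 1 this was -0.56 (adjusted p = 0.0874), and without SF539 scramble replicate 2 it was -0.48 (adjusted p = 0.0594). With scramble, RBL1 was higher in SF539 than in SNB19 by 0.75 (limma adjusted p = 0.000554), and under the siRNAs the difference was 0.12 (95% interval -0.07 to 0.31; limma adjusted p = 0.293). The order of groups began with SNB19 scramble (7.01), followed by SNB19 siRNA1 (7.71), SF539 siRNA1 (7.74) and SF539 scramble (7.76), which did not differ beyond their spread, then SNB19 siRNA2 (8.02), which lay within its spread of SF539 scramble, and SF539 siRNA2 (8.22).

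Counted by probe set, 3 of the 9 were called in SNB19 with both siRNAs against scramble (RBL1 higher, CDKN1A and CDKN1B lower), where 28.6% of all 16376 probe sets were called, 14.1% higher and 14.4% lower. The members' share was thus close to that of the whole array in SNB19. In SF539 5 of 9 were called (the 3 of CDKN1C and CDKN1B higher, CDKN1A lower), where 9.09% of all probe sets were called, 5.03% higher and 4.05% lower. These 5 probe sets stand for 3 genes, and with 1 probe set a gene the SF539 count was 3. The median change of the 9 was 0.03 in SNB19 and 0.22 in SF539, against -0.00 and -0.02 for all probe sets in the same lines. By siRNA, 2 were called with siRNA1 and 3 with siRNA2 in SNB19, where 22.9% and 25.8% of all probe sets were called. In SF539 1 was called with siRNA1, where 1.76% of all were, and 5 with siRNA2, where 13% were.

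Between the siRNAs, limma called 0 of 9 in SNB19 for siRNA2 against siRNA1 (4.26% of all probe sets), with 1, RBL1, at an unadjusted p below 0.05 (difference 0.30, 95% interval 0.03 to 0.57). In SF539 1 of 9, CDKN1B, was called for siRNA2 against siRNA1 (1.68% of all). With replicate 1 of SF539 siRNA2 left out, CDKN1A was at 0.81 and CDKN1C 213348_at at 1.05 for siRNA2 minus siRNA1. With replicate 2 left out instead, they were at 0.27 and 0.35, so these gaps depended on which siRNA2 array was kept. Between the lines, 8 of 9 were called with scramble (44.4% of all) and 8 of 9 under the siRNAs (48.9% of all). The difference between lines in the siRNA change was called for 5 of 9 (16.2% of all), with counts of 1 to 6 when single arrays were left out.

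**Figure D4:**
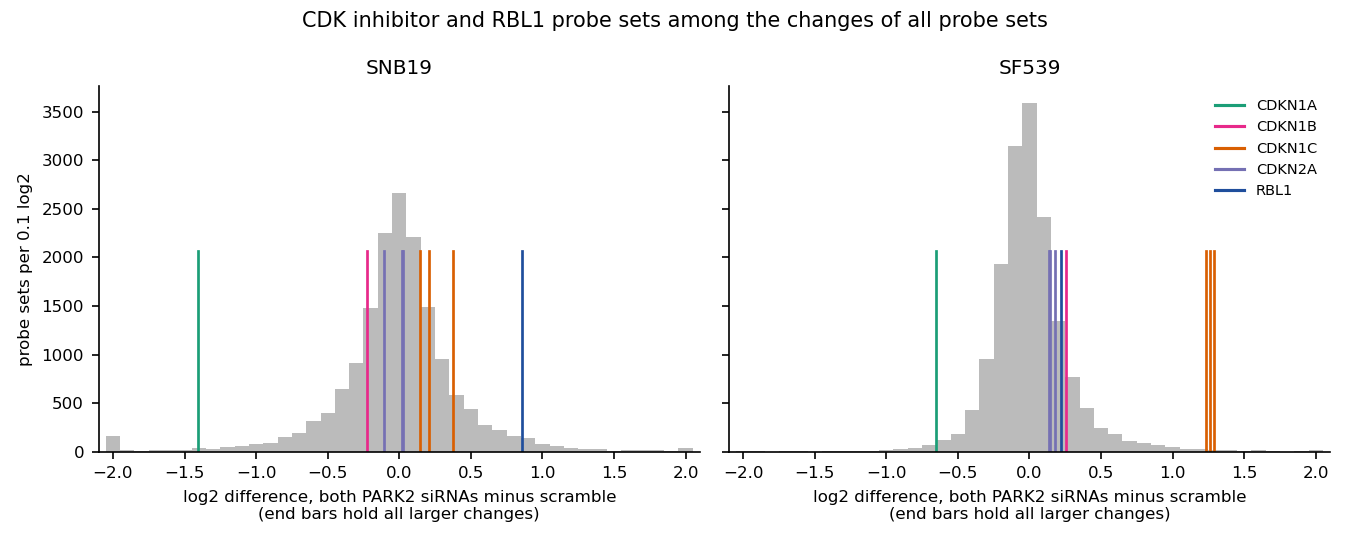
Log2 differences of both PARK2 siRNAs from scramble for all 16376 probe sets (grey bars, counted per bin) with the 9 probe sets of the CDK inhibitors and RBL1 as coloured lines, in SNB19 (left) and SF539 (right). CDKN1A lay in the low tail of both lines, RBL1 in the high tail of SNB19 and the 3 CDKN1C lines in the high tail of SF539.

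Over the 12 arrays, with each line's mean taken off, CDKN1A and RBL1 ran in opposite directions (r = -0.70) and CDKN1B and CDKN1C together (r = 0.59). The arrays of a group share their treatment, so these values describe the groups more than single arrays. Neither pattern held in every group. In SNB19, both siRNAs against scramble gave -0.23 for CDKN1B and 0.38, not called, for CDKN1C 213348_at. With SF539 siRNA1, CDKN1C 213348_at was at 0.91 (not called) and CDKN1B at 0.01. In the same group CDKN1A was at -0.92 and RBL1 at -0.02. The genes most like CDKN1A among 8545 were WARS1 (r = 0.987), GCH1 (0.982) and PTPN12 (0.972). These genes, and those named next, were picked by their r over the same arrays. Their changes therefore follow from the choice and are given as a description only. WARS1, a tryptophanyl-tRNA synthetase, was lower by 1.12 on the log2 scale in SNB19 and by 0.51 in SF539. Most like CDKN1B were CFHR2 (r = 0.976), S1PR1 (0.964) and TSC22D3 (0.938), and most like CDKN1C were EXTL2 (0.972), COL1A2 (0.965) and RCAN2 (0.964). COL1A2, a chain of type I collagen, was higher by 1.95 in SF539, and its difference in SNB19 was 0.27 and not called. RBL1 ran with SNAP23 (r = 0.978), UBQLN2 (0.970) and SKIC3 (0.969). For CDKN2A, whose values barely moved within a line, the highest r was 0.764, with MYH2.

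The pathway around these genes was read from lists in which each gene stood for its brightest probe set. Over all 8545 genes, 14.7% were called higher and 16.6% lower in SNB19, and 5.57% higher and 3.77% lower in SF539. Among the G1/S cyclins and their kinases, a list that includes targets of the CIP/KIP and INK4 proteins and also regulators such as CDK7, 4 of 13 rose and 2 fell in SNB19. CCNE2, an E-type cyclin, rose by 0.92 (limma adjusted p = 0.000174) and CDK4, the kinase that p16 binds, by 0.54 (limma adjusted p = 0.000896). CCND3, a D-type cyclin, fell by 1.06 on the log2 scale (limma adjusted p = 0.000521), and CDK7, part of the kinase that activates CDKs, fell by 0.47 (limma adjusted p = 0.000527). In SF539 1 of 13 fell, CCND1, the main cyclin partner of CDK4 and CDK6, by 1.09 on the log2 scale (limma adjusted p = 0.00390). The median of the list was 0.18 in SNB19 and -0.13 in SF539. The CCND1 difference in SNB19 was 0.18 (limma adjusted p = 0.485). Of the other CDK inhibitors, CDKN2D, an INK4 member, fell by 0.86 on the log2 scale in SF539 (limma adjusted p = 0.0382), but averaged over its 2 probe sets it was at -0.34 and not called (adjusted p = 0.0561), and its difference in SNB19 was -0.56 (limma adjusted p = 0.0854). CDKN3, a phosphatase that acts on CDK2, was called in neither line (0.15 in SNB19 and 0.41 in SF539, limma adjusted p = 0.673 and 0.301).

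The pocket protein and E2F group had 4 genes higher and 1 lower of 13 in SNB19. RB1, the founding pocket protein, rose by 0.62 (limma adjusted p = 0.00385) and RBL2, which encodes the p130 relative of RBL1, by 0.37 (limma adjusted p = 0.00465). E2F6, a repressive E2F, rose by 0.55 (limma adjusted p = 0.000421), RBBP4, a histone-binding partner, rose by 0.41 (limma adjusted p = 0.00485), and LIN37, a DREAM subunit named after its values were seen, fell by 0.35 on the log2 scale (limma adjusted p = 0.0199). In SF539 2 of 13 rose, RBL2 by 0.42 (limma adjusted p = 0.00974) and E2F6 by 0.32 (limma adjusted p = 0.0290), with RB1 at -0.17 (limma adjusted p = 0.454). The median change of the group was 0.29 in SNB19 and -0.07 in SF539.

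S-phase genes under E2F control rose in SNB19 in 10 of 20 cases, with 0 lower, and their median change was 0.39. Among the 10 were CCNE2 and CCNE1 (the latter named after its values were seen), which also count among the G1/S genes that rose. MCM6, a subunit of the replicative helicase, rose by 1.26 (limma adjusted p = 1.14e-05), POLA1, the catalytic subunit of DNA polymerase alpha, by 0.96 (limma adjusted p = 0.000180) and MCM4, another helicase subunit, by 0.72 (limma adjusted p = 0.000974). The mean level of the 20 genes was 9.39 to 9.48 on the SNB19 siRNA arrays, against 8.94 to 9.03 on the scramble arrays. In SF539 1 of 20 rose, MCM6 by 0.51 (limma adjusted p = 0.0139), and the median change was -0.02. The G2/M genes, which the DREAM complex of p130 or p107 represses, had 0 of 19 called by limma in either line, with 1 at an unadjusted p below 0.05 in SNB19 and 0 in SF539. The SF539 counts of both lists turned on siRNA2. Without its replicate 2, 10 G2/M genes and 4 S-phase genes were higher and 0 lower, and without its replicate 1, 4 G2/M genes and 7 S-phase genes were lower, with 0 and 1 higher. The SNB19 G2/M count also moved, to 7 higher and 1 lower with SNB19 arrays fitted alone and to 5 higher and 1 lower without either SF539 siRNA2 array.

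The ubiquitin ligases that turn over CDK inhibitors had 4 of 10 genes higher and 0 lower in SNB19. CUL4A, a cullin of the ligase that degrades p21, rose by 0.81 (limma adjusted p = 4.18e-05), its adaptor DDB1 by 0.63 (limma adjusted p = 0.000177), SKP2, the F-box protein that recognises p27, by 0.53 (limma adjusted p = 0.0224), and CUL4B, a cullin related to CUL4A, by 0.27 (limma adjusted p = 0.0146). In SF539 1 of 10 rose, CUL4B by 0.44 (limma adjusted p = 0.00433), and CUL4A was at -0.06 (limma adjusted p = 0.705). Among 10 measured p53 targets other than CDKN1A, 4 fell and 0 rose in SNB19. FAS, a death receptor, fell by 1.74 on the log2 scale (limma adjusted p = 1.54e-06), GADD45A, a stress protein, by 1.11 (limma adjusted p = 2.33e-05) and PMAIP1, a BH3-only protein, by 1.03 (limma adjusted p = 0.000140). In SF539 1 of 10 fell, GADD45A by 0.39 on the log2 scale (limma adjusted p = 0.0374), and FAS was at 0.30 (limma adjusted p = 0.124). The median of the p53 targets was -0.22 in SNB19 and -0.10 in SF539.

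Regulators of CIP/KIP transcription had 2 of 14 genes higher and 3 lower in SNB19. KLF6, a factor that can activate CDKN1A, fell by 1.11 on the log2 scale (limma adjusted p = 0.000728). The TGF-beta receptor gene TGFBR2 fell by 1.08 on the log2 scale (limma adjusted p = 3.66e-05) and SMAD3, which carries that receptor's signal, fell by 0.53 (limma adjusted p = 0.0329). TGFBR1, the partner receptor of TGFBR2, rose by 0.36 (limma adjusted p = 0.0221), so the genes of this signal did not move one way. MYC, which can repress CDKN1A and was named after its values were seen, rose by 0.46 (limma adjusted p = 0.0418), a call lost under 13 of 22 alternatives. In SF539 limma called 0 of 14, with 2 at an unadjusted p below 0.05. The median of this list in SNB19 was -0.07 and turned to 0.06 with arrays centred on their medians.

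**Figure D5:**
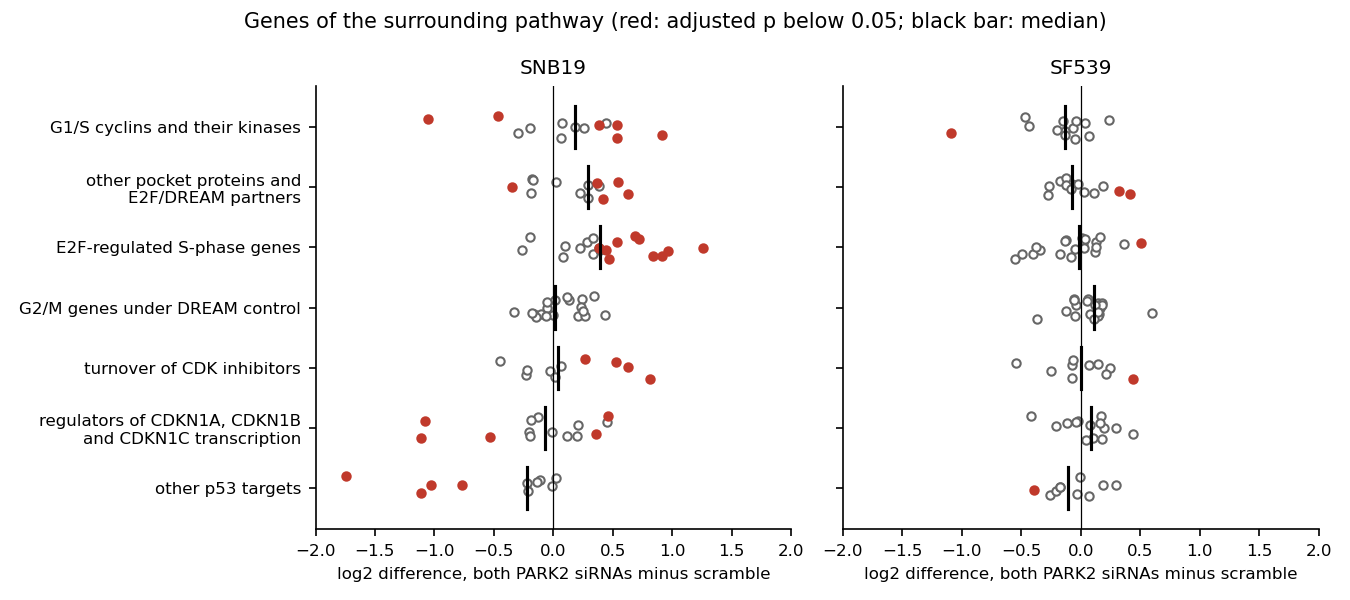
Log2 differences of both PARK2 siRNAs from scramble for the genes of 7 lists around the CDK inhibitors and RBL1, in SNB19 (left) and SF539 (right). Each point is a gene, red where its adjusted p was below 0.05, and the black bar is the median of the list. S-phase genes lay mostly right of 0 and the called p53 targets left of it in SNB19, while few genes were called in SF539.

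Some of these calls rested on single arrays or on the choice of probe set. In SNB19 those of CCNE2, CCND3, CUL4A, DDB1, KLF6, TGFBR2, FAS, GADD45A, PMAIP1, MCM4, MCM6 and POLA1 held under each alternative run, CUL4A at 0.43 when its probe sets were averaged. RB1 lost its SNB19 call without scramble replicate 1 (0.47, adjusted p = 0.0641) and was at 0.41 when its probe sets were averaged (adjusted p = 0.0210). RBL2 lost its SNB19 call without the same array (0.32, adjusted p = 0.0610) and when its probe sets were averaged (0.25, adjusted p = 0.137), and RBBP4 without scramble replicate 2 (0.36, adjusted p = 0.0604). LIN37, SKP2, SMAD3, TGFBR1, MTAP and CUL4B lost theirs without either SNB19 scramble array, at adjusted p up to 0.169, 0.131, 0.156, 0.144, 0.101 and 0.0856. The calls of LIN37, SKP2, SMAD3 and TGFBR1 were also lost without some of the SNB19 siRNA arrays, so that 4, 5, 4 and 4 of the 12 single arrays ended them, and those of LIN37 (-0.22, adjusted p = 0.115) and SMAD3 (-0.41, adjusted p = 0.0734) with the arrays centred on their medians. With SF539 arrays fitted alone, the SF539 calls of CCND1, CUL4B, RBL2, CDKN2D, E2F6, MCM6, GADD45A and LSP1 were all lost (adjusted p = 0.0566 for CCND1 to 0.181 for CDKN2D). CCND1 lost its call under no other alternative, and CUL4B also when its probe sets were averaged (0.25, adjusted p = 0.103) and with the 1.5-fold minimum. RBL2 lost its SF539 call also without scramble replicate 2 (0.38, adjusted p = 0.0546) and when its probe sets were averaged (0.26, adjusted p = 0.199), and CDKN2D, E2F6, MCM6 and GADD45A lost theirs without either SF539 scramble array, at adjusted p up to 0.162, 0.117, 0.0782 and 0.188. Those of CDKN2D, E2F6 and GADD45A were also lost without either SF539 siRNA1 array, and those of CDKN2D and GADD45A without some SNB19 arrays, which enter only through the shared estimate of the spread; in all, 10, 4 and 8 single arrays ended them.

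Around CDKN1C on the short arm of chromosome 11, an imprinted region, 3 of 9 measured neighbours fell in SNB19 and 0 rose. PHLDA2, an imprinted growth regulator, fell by 0.79 on the log2 scale (limma adjusted p = 0.000280; -0.41 averaged over its 2 probe sets), SLC67A1 by 0.71 and CARS1 by 0.68. In SF539, where CDKN1C rose, 1 of 9 was called, LSP1, higher by 0.34 (limma adjusted p = 0.0211; lost without any 1 of the SF539 scramble and siRNA1 arrays, adjusted p = 0.0578 to 0.0972), and PHLDA2 was at -0.37 (limma adjusted p = 0.0524).

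Interferon-stimulated genes were also called with PARK2 siRNAs in both lines. Of 22 measured, 21 fell and 1 rose in SNB19, with a mean level over the list of 5.82 to 6.25 on the siRNA arrays, against 10.87 on both scramble arrays. In SF539 5 of 22 fell, with a mean level of 10.15 to 10.38 on the siRNA arrays, against 10.56 to 10.64 on the scramble arrays. Among glial markers, 3 of 11 rose in SNB19, GFAP by 3.58 (1.75 averaged over its 2 probe sets), FABP7 by 1.33 and S100B by 1.00. The mean level of the list was 8.94 to 9.15 on the SNB19 siRNA arrays, against 8.47 to 8.54 on the scramble arrays. Its median change was only 0.16, and 2 of the 11 were below the lower quartile on every array. In SF539 1 of 11 fell. The part of either group in the changes of CDKN1A, CDKN1C and RBL1 was not tested. Leukocyte markers were called in 0 of 4 cases in each line by limma (0 at an unadjusted p below 0.05 in each), at mean levels of 4.17 to 4.36 over all arrays. Of 5 endothelial markers, 2 rose in SNB19, with a mean level of 4.47 to 4.71 on the siRNA arrays, against 4.18 to 4.2 on the scramble arrays, and limma called 0 in SF539 (0 at an unadjusted p below 0.05). Of 5 epithelial markers, 1 rose and 1 fell in SNB19 and 1 fell in SF539. Of 5 neuronal markers, 1 rose and 2 fell in SNB19, and limma called 0 in SF539 (1 at an unadjusted p below 0.05).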

How the data were processed

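Biotin-labelled total RNA was measured on Affymetrix arrays, per the labels. The deposited values are log2 expression levels per probe set. Per the submitters' processing notes, Partek was used, with no version. How background was corrected, how arrays were normalized, how probes were summarised and which build was used is not given in the sources. The table carries no detection call, and levels near the lower quartile are treated as dim. Of 16376 probe sets, 14038 had 1 gene, 792 several and 1546 none in the platform annotation used, and 14028 of the first were named through RefSeq.

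Group means of all 12 arrays were fitted to every probe set with limma 3.58.1 in R 4.3.3 (lmFit, contrasts.fit and eBayes, two-sided, 6 residual and 3.88 prior degrees of freedom). P-values were adjusted by Benjamini-Hochberg over all 16376 probe sets, and a change was called at an adjusted p below 0.05. Errors are SEs, and 95% intervals use the moderated variances. No array was dropped or imputed.

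On simulated data with 200 changed probe sets of 16376, the SNB19 comparison recovered 71.6% of 1.5-fold and 95.5% of 2-fold changes, and the SF539 comparison 67.2% and 97%. There all groups shared 1 spread per probe set and both siRNAs had the same change. In the data SF539 siRNA2 spread more, and 4679 probe sets were called in SNB19 and 1488 in SF539. The rates thus do not give the share of changes recovered in these data. The 5 genes and all gene lists were chosen with earlier results of these data known. From each list up to 4 genes by smallest p in each line could be named, and all measured genes of the neighbour lists and of the other CDK inhibitors. The 3 genes most like each member were named by Pearson r. Lists covered other CDK inhibitors, pocket proteins and E2F partners, G1/S cyclins, turnover, transcriptional regulators, p53 targets, S-phase and G2/M genes, interferon-stimulated genes, neighbours of CDKN2A and CDKN1C, and markers of glia, leukocytes, endothelium, epithelium and neurons. Alternatives were a replicate block, each line alone, quantile normalization, median centring, dim probe sets left out, other units of the test, another variance prior, array weights, a 1.5-fold minimum and each array left out.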

Additional observations from a re-analysis of the deposited data

Results flagged for a closer look

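The change with both PARK2 siRNAs was called different between the 2 lines for 5 of the 9 probe sets, by limma's test of SF539 minus SNB19 (16.2% of all probe sets passed it). Each of the 5 calls was lost under some alternative, as given above. The brightest CDKN1C probe set, 213348_at, was not called (0.89, limma adjusted p = 0.0568), and with 1 probe set a gene the count was 3. For CDKN1A the difference was 0.75 (adjusted p = 0.0203), from -0.65 in SF539 and -1.41 in SNB19. For CDKN1B it was 0.48 (adjusted p = 0.00724), from 0.25 in SF539 and -0.23 in SNB19. CDKN1C gave 1.14 for 216894_x_at (adjusted p = 0.0293), from 1.29 in SF539 and 0.15 in SNB19, and 1.03 for 213182_x_at (adjusted p = 0.0333), from 1.24 in SF539 and 0.21 in SNB19. For RBL1 it was -0.64 (adjusted p = 0.0169), from 0.22 in SF539 and 0.86 in SNB19. A group of 2 arrays is too small for a search for single arrays that stand apart.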

How the results depend on the processing

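Over 64 changes of the 9 probe sets and 1350 alternatives to them, 1220 kept direction and call, 88 lost a call, 18 gained one and 24 turned direction, 0 of these with a call. Some alternatives could not move an estimate, such as an array of the other line left out of a comparison within 1 line. An uncalled change that stayed uncalled also counts as kept, so these counts do not measure how stable the called changes were. Replicate numbers did not pair the arrays: deviations of same-numbered arrays correlated at r of -0.200 to 0.0954. With the replicate block the count of probe sets called between siRNAs in SF539 was 0 instead of 1.

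When 1 array was left out, the counts of probe sets called ran from 2 to 3 in SNB19, from 3 to 5 in SF539, from 2 to 3 for each siRNA in SNB19, from 0 to 4 for siRNA1 and 4 to 5 for siRNA2 in SF539, from 0 to 0 between siRNAs in SNB19, from 0 to 5 between siRNAs in SF539, at 8 between lines with scramble and under siRNAs, and from 1 to 6 for the difference between lines. With SF539 arrays alone the counts were 3 in SF539, 0 for siRNA1, 3 for siRNA2 and 0 between siRNAs, in a fit with fewer arrays. With 1 probe set a gene they were 3 in SF539, 3 for SF539 siRNA2, 5 between lines with scramble, 4 between lines under siRNAs and 3 for the difference between lines, and with the mean of probe sets 3, 3, 5 and 4 for the first 4 of these, since at most 5 genes can then be counted. For SF539 siRNA1 the count was 2 with dim probe sets left out, 2 with the trended robust prior and 4 with array weights. For SF539 siRNA2 it was 3 with the 1.5-fold minimum, and between siRNAs in SF539 it was 0 with array weights and 0 with that minimum.

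Median centring moved the median of all probe sets to 0.13 in SNB19 and -0.06 in SF539, and the share of higher calls to 70.4% in SNB19 and 42.5% in SF539, against 49.5% and 55.4% without it. Relative to that shift CDKN1A and RBL1 kept their direction in SNB19. Uncalled changes turned direction as follows. For CDKN2A in SNB19, 209644_x_at was -0.022 with the mean of probe sets and -0.22 to 0.26 with single arrays left out, 207039_at -0.15 to 0.21 and 211156_at -0.27 to 0.051 with single arrays left out, and 211156_at 0.020 with median centring. For the difference between lines in CDKN2A, median centring gave -0.047 (209644_x_at) and -0.050 (207039_at), and single arrays left out gave -0.12 to 0.36 (209644_x_at) and -0.060 to 0.30 (207039_at). The line difference of 211156_at with scramble was -0.020 to 0.30 with single arrays left out. CDKN1B with SF539 siRNA1 was -0.0025 with quantile normalization, -0.031 with median centring and -0.010 to 0.029 with single arrays left out. CDKN1B between siRNAs in SNB19 was 0.0085 with median centring and -0.042 to 0.0037 with single arrays left out. With single arrays left out, CDKN1C 216894_x_at in SNB19 was -0.13 to 0.42, CDKN1C 213348_at between siRNAs in SNB19 -0.32 to 0.087 and RBL1 with SF539 siRNA1 -0.18 to 0.14. The cause of these turns was not tested. Over all alternatives, 5 to 16 of the S-phase genes, 1 to 8 of the pocket protein and E2F group and 1 to 6 of the G1/S genes were higher in SNB19, against 10, 4 and 4. The share of all probe sets called in SF539 ran from 1.82% with SF539 arrays alone to 17.5% with dim probe sets left out, against 9.09%, and in SNB19 from 12.7% with the 1.5-fold minimum to 45.9% with dim probe sets left out, against 28.6%.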
